A study of Mus musculus with 4 samples.

Results

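Border macrophages with low MHC class II were read from single-cell libraries of mouse brain. They were taken as the barcodes with 1000 or more UMIs (unique molecular identifiers, each standing for 1 captured transcript) and at most 10% mitochondrial UMIs. Each also had a UMI of 3 or more of the 7 genes Mrc1, Pf4, F13a1, Cd163, Ms4a7, Cd209f and Clec10a, and under 10 UMIs of the MHC class II genes H2-Aa, H2-Ab1 and H2-Eb1 in all. Of the 24520 barcodes in the 4 libraries, 21918 passed the UMI and mitochondrial limits, and 804 of these were border macrophages with low MHC class II, called members here. They were thus chosen by measured UMIs of these genes.

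Border macrophages live in the meninges, in the perivascular spaces and around the choroid plexus, outside the brain tissue that microglia occupy. They are known for scavenging from blood vessel walls and cerebrospinal fluid, through receptors such as the mannose receptor Mrc1, the haemoglobin receptor Cd163, Stab1 and C-type lectins of the Cd209 family. They are often divided into a kind with much MHC class II, which presents antigen, and a kind with little of it and more Lyve1, a hyaluronan receptor.

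The study isolated CD11b-positive cells magnetically from the brains of mice of 4 genotypes and sequenced 1 10x library of each. The Wild-type library carried no transgene named in the labels. TERF2DN-Tg carried TERF2DN, a dominant-negative version of TERF2, a protein that binds and protects telomeres. APP/PS1 is named in the series' title as APPswe/PS1dE9, a model that deposits amyloid, and APP/PS1; TERF2DN carried both transgenes and is also called the double transgenic library here. The title speaks of senescence of endothelial cells. The sources used here do not give the promoter that drives TERF2DN, the age and sex of the mice, the number of mice behind each library or any pooling. Microglia is the labelled cell type of every library, and the protocol names microglia and endothelial cells. Numbers in a row of 4 always follow the order Wild-type, TERF2DN-Tg, APP/PS1 and double transgenic.

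The libraries held 7950, 5565, 5599 and 5406 barcodes, and the members had 3440378, 2262915, 564214 and 863254 UMIs in all, with medians of 6440, 6668, 5333 and 4688 UMIs and 2056, 2205, 1936 and 1659 genes per barcode. Median mitochondrial shares were 3.26, 3.18, 2.94 and 3.30%. Members in 1, 0, 0 and 2 cases carried a barcode sequence that also occurred in another library. Terf2 had 63, 50, 4 and 19 UMIs in members, and these counts do not tell the transgene from the mouse gene, so they check no label. With 1 library per genotype no test was possible, and the difference between genotypes and that between libraries cannot be told apart. All intervals are exact 95% intervals and cover counting error only. Levels are UMIs summed over the barcodes of a library and scaled to a total of 1000000 counts (CPM). A gene was counted as higher or lower at a ratio of 1.5 or more, or its inverse, on CPM + 20, and was compared only at 100 CPM or more in at least 1 of both libraries; log2 ratios are on that scale and understate differences of low genes. Folds with an interval are plain CPM ratios.

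Genes that chose the members are described first, without comparison, since the rule used them. Mrc1 was at 1075, 1033, 1309.8 and 1199 CPM and had a UMI in 94.6, 94.5, 93.8 and 92.3% of members. Pf4, a chemokine also stored in platelets, was at 820.3, 602, 1118 and 699 CPM. F13a1, a coagulation factor subunit that macrophages make, was at 569, 497, 663 and 682 CPM, and Ms4a7 at 588, 441, 611 and 577 CPM. Cd163 was at 249, 287, 370.4 and 438 CPM, and the lectins Cd209f and Clec10a were at 386, 270.4, 493 and 339 CPM and 206, 207, 285 and 191 CPM. In microglia-gated barcodes of the same libraries, which had 3 or more of 8 microglia-defining genes and at most 1 of the 7 rule genes, Mrc1 was at 2.73, 3.56, 0.784 and 1.05 CPM. That gate held 19717 barcodes.

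Border macrophage genes that the rule did not use were present as well. Of 40 such genes, all had UMIs in members of every library except Vsig4, which was at 0 in APP/PS1. Lyve1 was at 84.9, 85.7, 126 and 173 CPM in members and at most 0.360 CPM in the microglia gate of any library. Folr2, a folate receptor, was at 133, 126, 197 and 118 CPM, and Cbr2, a carbonyl reductase, at 163, 139, 191 and 169 CPM, with 0.651, 0.600, 2.76 and 2.54 CPM and 1.02, 1.20, 0.319 and 0.359 CPM in the microglia gate. Stab1, a scavenger receptor of macrophages and sinusoidal endothelium, was at 723, 579.8, 590.2 and 688 CPM and at 145, 157, 47.7 and 70.9 CPM in the microglia gate. Summed over a library, the members thus carried genes of border macrophages, while the libraries as a whole are labelled microglia. They carried the 8 microglia-defining genes as well, which are given next.

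Values on either side of the thresholds were as follows. Barcodes with 3 rule genes, the fewest allowed, numbered 57, 39, 12 and 20, and their rule genes summed to 1144, 541, 808 and 1375 CPM. Barcodes with 2 rule genes and the same MHC class II limit numbered 80, 45, 35 and 41, and their rule genes summed to 408, 451, 336 and 496 CPM. Of the barcodes with 3 rule genes, 73.7, 79.5, 58.3 and 55% had 4 or more of the 8 microglia-defining genes, and of those with 2 rule genes 82.5, 80, 80 and 82.9% did. Those with 3 rule genes had the lipid carrier Apoe at 30227, 7008, 35437 and 47923 CPM and Lyve1 at 27.0, 19.7, 25.3 and 7.95 CPM. Those with 2 had Apoe at 7411, 13451, 39464 and 33733 CPM. In TERF2DN-Tg the members with 3 rule genes thus held less Apoe than the barcodes with 2. The MHC class II limit left 609 members without a UMI of the 3 genes and 51 with 5 to 9 UMIs. Just outside it, 26 barcodes had 10 to 14 UMIs, and 296 in all were at or over the limit.

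Microglial RNA was present in most members. The 8 microglia-defining genes were the purinergic receptor P2ry12, Tmem119, the lectin Siglech, the transcription factor Sall1, Sparc, Olfml3, Gpr34 and Fcrls. P2ry12 was at 1001, 1095, 367 and 467 CPM in members and at 1758, 1705, 789.7 and 879.8 CPM in the microglia gate. The median over the 8 genes of the level in members divided by the level in the microglia gate, called the microglial RNA share, was 0.562, 0.653, 0.476 and 0.532. All 8 genes were detected in 104, 84, 6 and 17 members, and none in 13, 5, 6 and 6.

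The members were also divided by how many of the 8 microglial genes they held. Members with fewer than 4 of the 8 genes numbered 129, 79, 42 and 61, or 34.9, 33.3, 52.5 and 52.1% of members, and their microglial RNA share was 0.0515, 0.0548, 0.0628 and 0.106. In the other 241, 158, 38 and 56 members the share was 0.661, 0.751, 0.680 and 0.667. The first kind had medians of 3866, 3475, 3938 and 3083 UMIs and the second 8190, 9114, 7196 and 9565 UMIs, so the division also follows depth. In the microglia gate the 8 genes summed to 9164, 9008, 5838 and 5927 CPM, so the cut was not equally strict with and without amyloid. The division uses the same 8 genes as the share, so a low share in the first kind and a high one in the second are fixed by the choice and are no finding. The share in microglia-gene-poor members is for the same reason a low estimate, and the part of a difference that it assigns to microglial RNA there is one as well. Fcrls was the exception among the 8 genes: in members with fewer than 4 of them its level was still 0.799, 0.498, 0.545 and 0.588 of that in the microglia gate.

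Barcodes gated for other cells of the same libraries are set beside this share. It was 0.613, 0.729, 0.0946 and 0.682 in 78, 39, 11 and 22 neutrophil-gated barcodes and 0.0640, 0.138, 0.0147 and 0.0814 in 27, 24, 30 and 33 endothelial-gated barcodes. Members above the 95th percentile of UMIs among barcodes within the limits numbered 62, 39, 6 and 10. No doublet caller was run, and microglial RNA from the suspension and a microglia in the same droplet cannot be told apart by this measure. Each result is therefore given over all members and over the 129, 79, 42 and 61 members with fewer than 4 microglial genes, called microglia-gene-poor members. A difference is named as one that microglial RNA may account for where the share times the level in the microglia gate gives 50% or more of it.

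**Figure D1:**
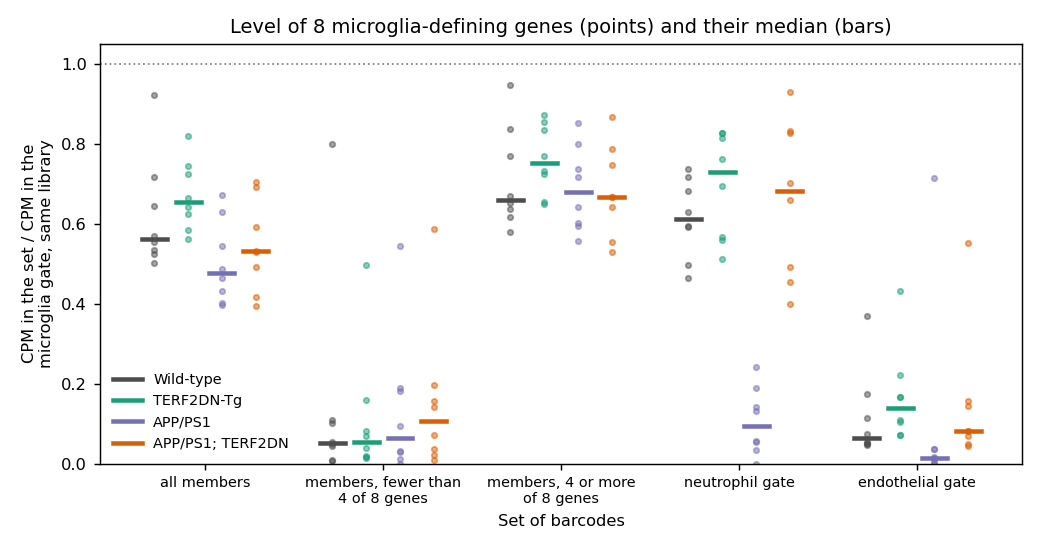
Each point is 1 of 8 microglia-defining genes, placed at its CPM in a set of barcodes divided by its CPM in the microglia gate of the same library, and each bar is the median of the 8 genes. The medians lay between 0.476 and 0.653 in all members, between 0.0515 and 0.106 in members with fewer than 4 of the genes, and between 0.661 and 0.751 in the other members. The point that stays high in the second set is Fcrls in every library.

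RNA of neutrophils, and of endothelium in Wild-type, was concentrated in single barcodes, while some other lists were spread over more members. Genes of neutrophils (S100a8, S100a9, Retnlg, Mmp9, Ly6g, Camp, Ngp and Ltf) had 9638, 3070, 7 and 2540 UMIs in members, and 1 barcode held 52.9%, 87.7% and 99.2% of those in Wild-type, TERF2DN-Tg and the double transgenic library. Endothelial genes had 668, 234, 20 and 27 UMIs, of which 92.5% in Wild-type came from 1 barcode. Monocyte genes had 652, 82, 10 and 43 UMIs and mural or fibroblast genes 133, 63, 43 and 5. T or NK cell genes had 4, 1, 0 and 0, erythroid genes 1, 0, 0 and 1 and neuron genes 4, 6, 1 and 0 UMIs, so these lists were at or near 0. B cell genes had 658, 425, 79 and 98 UMIs, with 2.74, 4.24, 8.86 and 10.2% in the highest barcode. Dendritic cell genes, among them Cd209a, had 771, 332, 160 and 159 UMIs, with 3.63, 6.63, 15 and 12.6% there. Oligodendrocyte genes had 102, 86, 11 and 39 UMIs, with 6.86, 5.81, 27.3 and 15.4% there. Members with UMIs of 3 or more genes of 1 such list (neutrophil, endothelial, mural and fibroblast, astrocyte, oligodendrocyte, neuron, T or NK cell, or B cell) numbered 6, 5, 0 and 4, of which 1, 1, 0 and 2 were microglia-gene-poor.

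Members were a larger share of barcodes in the libraries without amyloid. They were 5.11% of the barcodes within the UMI and mitochondrial limits in Wild-type (4.61 to 5.64%) and 4.87% in TERF2DN-Tg (4.28 to 5.51%). In APP/PS1 they were 1.62% (1.29 to 2.02%), and in the double transgenic library 2.40% (1.99 to 2.87%). The intervals of the libraries with amyloid lay below those of both others. Microglia-gene-poor members were 1.78% (1.49 to 2.11%), 1.62% (1.29 to 2.02%), 0.853% (0.615 to 1.15%) and 1.2% (0.957 to 1.60%). Among these the APP/PS1 share was again the lowest, while the interval of the double transgenic library overlapped those of Wild-type and TERF2DN-Tg. The CD11b selection can set these shares, and barcodes within the limits had medians of 5383, 5300, 6180.5 and 6069.5 UMIs. Barcodes that had the rule genes but were at or over the MHC class II limit were also fewer in the libraries with amyloid. They numbered 120, 95, 35 and 46 of the 7247, 4867, 4924 and 4880 barcodes within the UMI and mitochondrial limits.

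**Figure D2:**
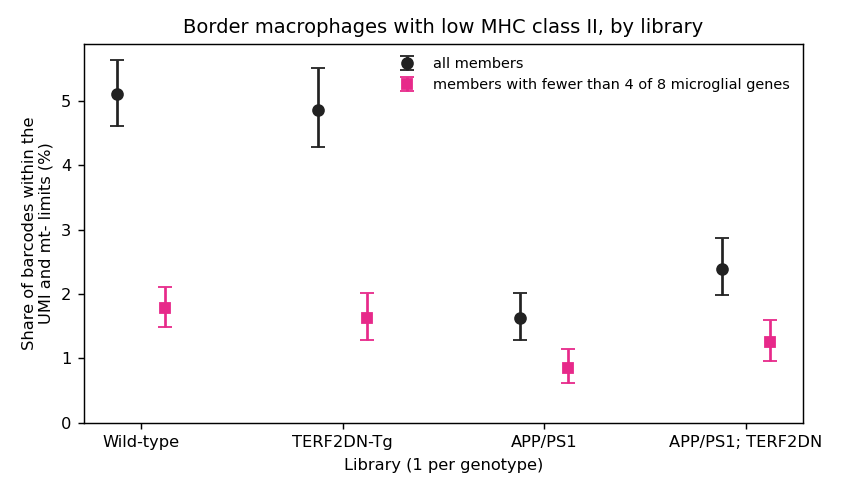
Share of barcodes within the UMI and mitochondrial limits, in percent, that were members (circles) or microglia-gene-poor members (squares) in each of the 4 libraries, with exact 95% intervals for counting error. The circles lay at 5.11% and 4.87% without amyloid and at 1.62% and 2.40% with it, and the squares lay closer together.

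APP/PS1 members were set against Wild-type members to see what differs with amyloid. Of 1422 genes compared, 173 (12.2%) passed 1.5-fold, 44 higher (3.09%) and 129 lower (9.07%). Median-of-ratios size factors moved the median log2 ratio of all genes by 0.15, and 113 genes were then higher and 65 lower. With the mean of CPM per cell 48 were higher and 49 lower, with members thinned to 2000 UMIs 118 and 112, and with microglial RNA subtracted 68 and 13, so which direction held more genes depended on the scaling. On the CPM scale microglial RNA may account for 33 of the 44 and 115 of the 129. In microglia-gene-poor members 163 of 1398 genes (11.7%) passed, 76 higher (5.44%) and 87 lower (6.22%). The lowest genes there, Cldn5, Itm2a and Flt1 of endothelium, came from 1 Wild-type barcode that held 241 Cldn5 UMIs. Without members that held RNA of other cell types, 138 genes passed.

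The plaque-associated genes of microglia were higher in APP/PS1 members. Cst7, a cystatin that microglia express near amyloid plaques, was at 5.81, 4.86, 471 and 526 CPM in members, with 20, 11, 266 and 454 UMIs, and at 15.3, 26.2, 1322 and 989.9 CPM in the microglia gate. The members of the amyloid libraries were high and those of the others near 0, and the APP/PS1 level was 81.1-fold higher (51.5 to 135) against Wild-type. Of that difference microglial RNA would give 133%, so the measure predicts more Cst7 than was seen. In microglia-gene-poor members Cst7 had 0, 0, 8 and 28 UMIs, or 0, 0, 42.5 and 124 CPM.

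Other genes of the list followed the microglia in the same way. Lpl, a lipoprotein lipase, was at 5.52, 11, 154 and 119 CPM in members and Fabp5, a fatty acid carrier, at 37.8, 23.9, 353 and 348 CPM, and microglial RNA would give 130.2% and 128% of their differences between APP/PS1 and Wild-type. Igf1, a growth factor, was at 147, 125, 285 and 307 CPM in members and 2.71, 5.04, 298 and 258 CPM in the microglia gate. In microglia-gene-poor members Igf1 was at 251, 245, 298 and 302 CPM, within 1.5-fold between these libraries. Trem2, a lipid receptor of myeloid cells, was at 1677, 1822, 2784 and 2694 CPM in members, 2407, 2328, 5525 and 4495 CPM in the microglia gate and 1055, 1034, 1132 and 1236 CPM in microglia-gene-poor members. Of the 22 plaque-associated genes compared, 13 were higher and 0 lower, with a median log2 ratio of 0.65 against -0.04 over all genes, and microglial RNA may account for each of the 13. Besides those described they were Spp1, Ank, Ctsl, Cd9, Ccl6, Lilrb4a, Cd52 and Hif1a. In microglia-gene-poor members, 2 of 16 were higher, Fabp5 and Ccl6, with a median of 0.09 against 0.09 over all genes.

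Apoe, the lipid carrier that both cell types make, had similar levels in microglia-gene-poor members of the 4 libraries, at 77833, 78487, 74652 and 75169 CPM. Over all members Apoe was at 43832, 34395, 58212 and 48646 CPM, and in the microglia gate at 2799, 3279, 27935 and 23756 CPM. The microglia with amyloid held far more Apoe than those without, and microglial RNA would give 81.6% of the difference between APP/PS1 and Wild-type members. In all members the APP/PS1 level was 1.33-fold higher (1.31 to 1.34), and in microglia-gene-poor members the ratio was 0.959.

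Genes of homeostatic microglia were lower in APP/PS1 members. P2ry12 was 2.73-fold lower (ratio 0.367, 0.317 to 0.422), Tmem119 2.59-fold lower (ratio 0.386, 0.314 to 0.472) and Sall1 3.61-fold lower (ratio 0.277, 0.176 to 0.416). The fractalkine receptor Cx3cr1 was at 2306, 2565, 968 and 1251 CPM and 2.38-fold lower (ratio 0.420, 0.384 to 0.458). Microglial RNA would give 96.5%, 116%, 74.4% and 61.9% of these differences, in the order named. Of 22 homeostatic genes compared, 16 were lower and 1, Serpine2, higher, with a median log2 ratio of -0.80. Microglial RNA may account for all 17, of which P2ry12, Tmem119, Sall1, Siglech, Sparc and Gpr34 also set the share. The 12 lower genes without values here were Siglech, Sparc, Gpr34, Crybb1, Ecscr, P2ry13, Golm1, Selplg, Cst3, Tgfbr1, Bin1 and Nav2. In microglia-gene-poor members Tmem119 had 5, 5, 2 and 2 UMIs and Sall1 1, 1, 0 and 1, so these genes were at or near 0, and P2ry12 was at 96.8, 140.0, 149 and 124 CPM. Of the 13 homeostatic genes compared there, 0 were higher and 3 lower, Sparc, Gpr34 and Tgfbr1, with a median log2 ratio of -0.35 against 0.09 over all genes. Detection of Sparc and Gpr34 helped to choose the microglia-gene-poor members, by a cut not equally strict with and without amyloid. The counts and the median of the list there thus depend in part on that choice.

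**Figure D3:**
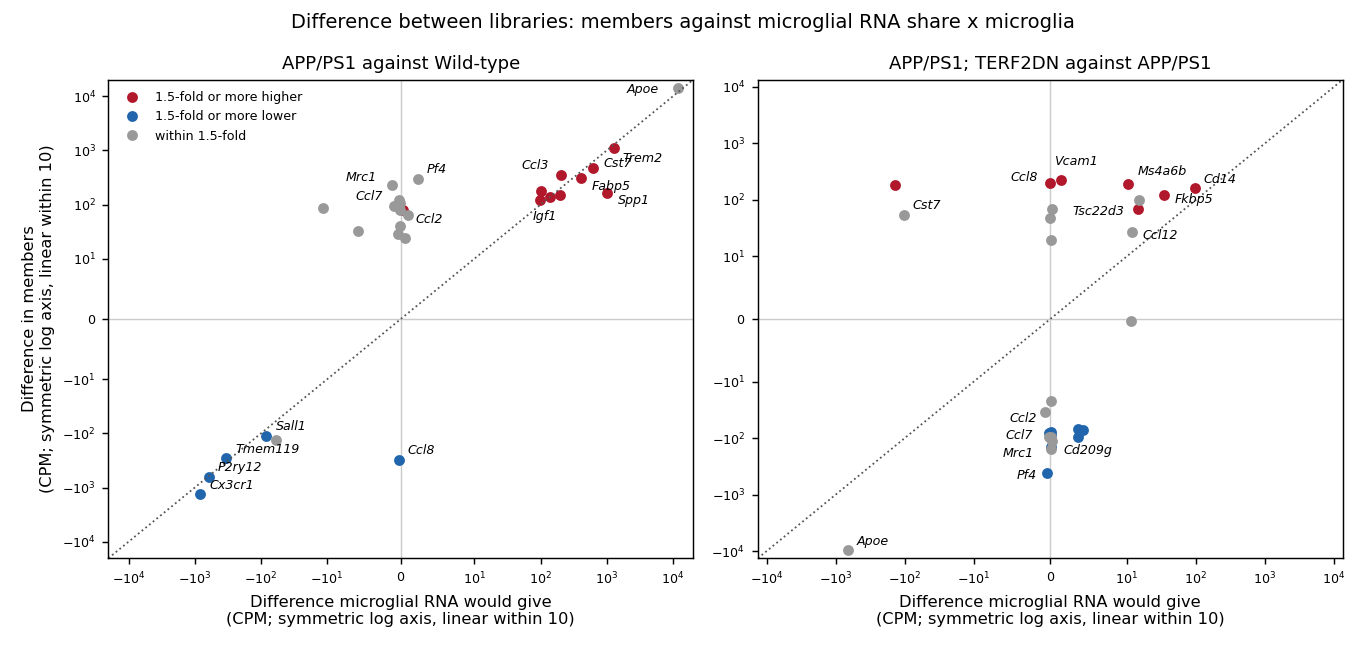
Each point is a gene named in the text; the vertical axis is its CPM difference between members of the libraries named above the panel, and the horizontal axis is the difference that the microglial RNA share times the microglia gate would give, both on symmetric log axes. In the left panel Cst7, Trem2, Igf1, P2ry12 and Tmem119 lay near the line of equality while Ccl2, Ccl7 and Ccl8 lay near 0 on the horizontal axis; in the right panel Ccl8, Vcam1, Pf4 and Cd209g also lay near 0 on it.

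Ccl2, Ccl7 and Ccl8, chemokines that attract monocytes, differed between the libraries where the microglia gate held almost none of them. Ccl2, Ccl7, Ccl12 and Ccl8 are neighbours on chromosome 11 (mm10, plus strand), at chr11:82035571-82037453, chr11:82045712-82047525, chr11:82101845-82103400 and chr11:82115185-82116799. They are similar in sequence, so reads could be shared between them. In the microglia gate Ccl8 was at most 1.17 CPM and Ccl7 at most 0.495 CPM in any library, and Ccl2 was between 2.44 and 5.14 CPM. Ccl12 was not scarce there, with a UMI in 20.1, 20.7, 19.2 and 22.6% of microglia-gated barcodes. Among members 40.3, 35.4, 36.25 and 41.0% had a Ccl12 UMI.

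Ccl8 was at 436, 219.6, 129 and 329 CPM in members, from 1499, 497, 73 and 284 UMIs. It was highest in Wild-type and lowest in APP/PS1. APP/PS1 was 3.37-fold lower (ratio 0.297, 0.231 to 0.376) against Wild-type, and the double transgenic library was 2.54-fold higher (1.96 to 3.34) against APP/PS1. In Wild-type 1 barcode held 359 of the UMIs, and without the highest barcode of each library the log2 ratio of these libraries was -1.48 in place of -1.61. In microglia-gene-poor members Ccl8 was at 514, 401, 223 and 471 CPM, 2.30-fold lower (ratio 0.434, 0.306 to 0.601) in APP/PS1 than in Wild-type and 2.11-fold higher (1.46 to 3.10) in the double transgenic library than in APP/PS1. Without the highest barcode of each library the log2 ratio of the last pair was 1.18 in members and 0.44, within 1.5-fold, in microglia-gene-poor members.

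Ccl2 and Ccl7 went the other way. Ccl2 was at 27.3, 16.4, 106 and 24.3 CPM, from 94, 37, 60 and 21 UMIs in 35, 20, 10 and 9 members. Ccl7 was at 33.4, 20.3, 122 and 33.6 CPM, from 115, 46, 69 and 29 UMIs in 44, 23, 10 and 11 members. The APP/PS1 library was the high one for both, and the other libraries held at most 33.6 CPM of either gene. Ccl2 was 3.89-fold higher (2.77 to 5.44) in APP/PS1 than in Wild-type and 4.37-fold lower (ratio 0.229, 0.132 to 0.382) in the double transgenic library than in APP/PS1. The same values for Ccl7 were 3.66-fold higher (2.67 to 4.97) and 3.64-fold lower (ratio 0.275, 0.172 to 0.430). Both rest on 10 APP/PS1 members with a UMI, the highest of which had 14 UMIs of Ccl2 and 21 of Ccl7. In microglia-gene-poor members APP/PS1 was again the highest library, with Ccl2 at 52.0, 19.1, 159 and 17.8 CPM and Ccl7 at 43.0, 38.2, 159 and 35.6 CPM, from 29, 6, 30 and 4 and 24, 12, 30 and 8 UMIs.

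Ccl12 was at 297, 159, 385 and 411 CPM in members and 426, 391, 866 and 422 CPM in microglia-gene-poor members. Among the latter APP/PS1 was the high library, 2.03-fold higher (1.65 to 2.49) than Wild-type, and the double transgenic library was 2.05-fold lower (ratio 0.488, 0.375 to 0.632) than APP/PS1; over all members neither comparison passed 1.5-fold. Ccl24, an eosinophil attractant, was at 118, 108, 174 and 147 CPM in members and passed 1.5-fold in 1 comparison, among microglia-gene-poor members, where it was lower in the double transgenic library than in TERF2DN-Tg; without the highest barcode of each library the Ccl24 log2 ratio there was -0.40, within 1.5-fold. Ccl3 and Ccl4, which activated microglia release, were at 54.1, 33.1, 408 and 271 CPM and 43.6, 17.7, 167 and 264 CPM in members. In microglia-gene-poor members Ccl3 was at 50.2, 35.0, 37.2 and 57.8 CPM, with no high library, and microglial RNA would give 57.4% of its difference between APP/PS1 and Wild-type members. Of the chemokines compared, 5 were higher (Ccl2, Ccl3, Ccl4, Ccl6 and Ccl7) and 1 was lower (Ccl8) of 8 in APP/PS1 against Wild-type, and in microglia-gene-poor members 4 were higher (Ccl2, Ccl6, Ccl7 and Ccl12) and 1 lower (Ccl8) of 7.

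**Figure D4:**
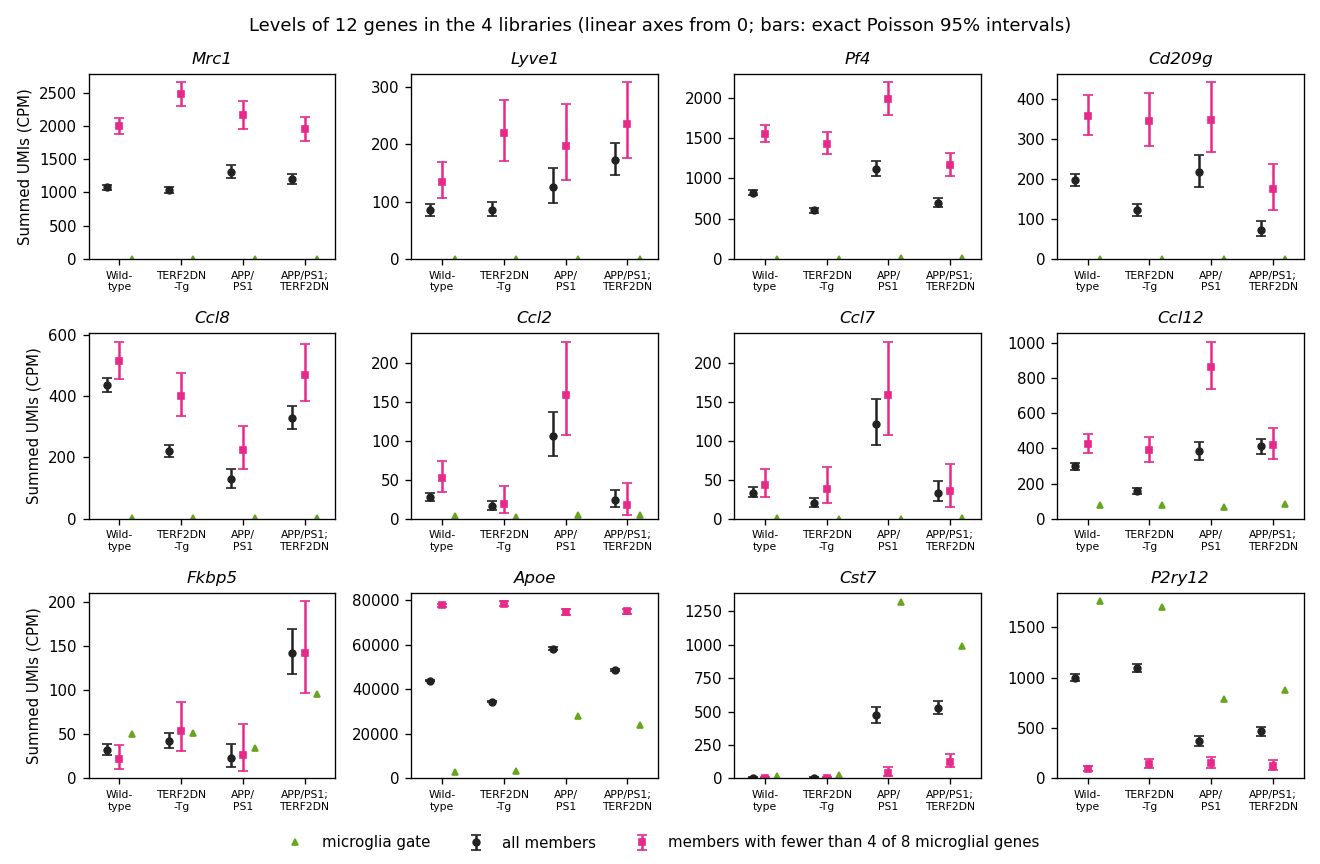
Levels in CPM (linear axes from 0) of 12 genes in all members (circles), microglia-gene-poor members (squares) and the microglia gate (triangles) of the 4 libraries; bars are exact Poisson 95% intervals. Ccl2 and Ccl7 were high in APP/PS1 alone and Fkbp5 in the double transgenic library alone among members, Ccl8 was lowest in APP/PS1, and Cst7 and P2ry12 in members followed the microglia gate.

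Ifi27l2a, an interferon-induced gene, was at 262, 308, 443 and 511 CPM in members and 324, 592, 744 and 733 CPM in microglia-gene-poor members. Wild-type was the low library in both. Among microglia-gene-poor members APP/PS1 was 2.29-fold higher (1.83 to 2.88) than Wild-type, and over all members 1.69-fold higher (1.47 to 1.95), of which microglial RNA would give 55.2%. Of 8 interferon genes compared between these sets of microglia-gene-poor members, 2 were higher, Ifi27l2a and Ifi204, and 0 lower. C5ar1, the receptor of complement fragment C5a, was at 82.4, 140.0, 207 and 102 CPM in microglia-gene-poor members, highest in APP/PS1, and at 68.9, 71.1, 101 and 101 CPM over all members, where it passed 1.5-fold in none of the comparisons made.

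Of the 40 border macrophage genes outside the rule, 29 were compared between APP/PS1 and Wild-type, 0 were higher and 2 lower, Ccl8 and Marcks, with a median log2 ratio of 0.09. Of the Marcks difference, 92.8% would come from microglial RNA. With median-of-ratios size factors 4 were higher (Lyve1, Folr2, Cd209b and Ccl24) and 1 was lower (Ccl8). In microglia-gene-poor members 0 of 37 were higher and 2 lower, Ccl8 and Colec12, a scavenger receptor of the collectin family. The 7 rule genes had log2 ratios between 0.06 (Ms4a7) and 0.54 (Cd163), which are given as a description, since their detection chose the members.

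TERF2DN-Tg members were set against Wild-type members to see what differs with TERF2DN alone. Of 1396 genes compared, 12 (0.86%) passed 1.5-fold, 3 higher (0.215%) and 9 lower (0.645%), and microglial RNA may account for 3 of the lower. With members thinned to 2000 UMIs 19 were higher and 14 lower, and with microglial RNA subtracted 4 and 35. The 3 higher genes were Ccl6, Retnlg and the histone gene Hist1h2ap. Of the Hist1h2ap and Retnlg UMIs in TERF2DN-Tg, 142 of 242 and 434 of 444 came from 1 barcode each. The 9 lower genes were S100a8, S100a9, Camp, Ngp, Ptgds, Apod, Ccl8, Ccl12 and Cd209g. In Wild-type 1 barcode held 468 of 520 Ngp UMIs, 434 of 453 Camp UMIs, 1255 of 1435 Ptgds UMIs and 292 of 375 Apod UMIs, so these differences rest on single barcodes.

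Ccl6, a CC chemokine of myeloid cells, was spread over more members, with a UMI in 169, 130, 39 and 77 of them. It was at 127, 214, 236 and 360.3 CPM, lowest in Wild-type, and 1.68-fold higher (1.48 to 1.92) in TERF2DN-Tg than in Wild-type. Of that difference 18.8% would come from microglial RNA. In microglia-gene-poor members Ccl6 was at 145, 293, 228 and 369 CPM and 2.02-fold higher (1.48 to 2.75). Ccl8 was 1.98-fold lower (ratio 0.504, 0.455 to 0.558) in TERF2DN-Tg than in Wild-type members and Ccl12 1.87-fold lower (ratio 0.534, 0.472 to 0.602). Without the highest barcode of each library the Ccl8 log2 ratio was -0.78 in place of -0.93. While these passed 1.5-fold over all members, in microglia-gene-poor members both were within 1.5-fold, with log2 ratios of -0.34 and -0.12.

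Lectins of the Cd209 family lie together on chromosome 8 (mm10), among them Cd209g at chr8:4134098-4137707 and Cd209b at chr8:3917655-3926844. They are similar in sequence, so reads could be shared between them. Cd209g was at 196, 122, 216 and 73.0 CPM in members, highest in APP/PS1 and Wild-type and lowest in the double transgenic library. It was 1.61-fold lower (ratio 0.619, 0.536 to 0.714) in TERF2DN-Tg than in Wild-type. In microglia-gene-poor members it was at 357, 344, 345 and 173 CPM and did not pass 1.5-fold between TERF2DN-Tg and Wild-type; 1 TERF2DN-Tg barcode held 46 of its 108 UMIs there. Cd209a and Cd209b were at 219, 141, 275 and 179.6 CPM and 126, 78.2, 191 and 145 CPM in members, and at 498, 270.4, 452 and 249 CPM and 279.5, 175, 361 and 240.0 CPM in microglia-gene-poor members, where both passed 1.5-fold and were lower in TERF2DN-Tg than in Wild-type, 1.84-fold lower (ratio 0.543, 0.421 to 0.695) and 1.60-fold lower (ratio 0.626, 0.452 to 0.857). Cd209a, Cd209b and Cd209g were each under 3 CPM in the microglia gate.

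In microglia-gene-poor members 97 of 1339 genes (7.24%) passed 1.5-fold between TERF2DN-Tg and Wild-type, 39 higher (2.91%) and 58 lower (4.33%). Lyve1 was at 134, 219.5, 197 and 236 CPM and 1.63-fold higher (1.16 to 2.30) in TERF2DN-Tg than in Wild-type, and Fcna, a ficolin of the lectin pathway of complement, was at 168, 321, 159 and 160.0 CPM and 1.91-fold higher (1.43 to 2.55). Over all members Lyve1 was under 100 CPM in both libraries and was not compared, and Fcna had a log2 ratio of 0.42, within 1.5-fold. Of 36 border macrophage genes outside the rule, Lyve1 and Fcna were the 2 higher, and 4 were lower, Cd209a, Cd209b, Colec12 and the lectin Mgl2. Of 7 immediate-early genes compared there, Jun, Junb, Ier3 and Klf2 were lower and 0 were higher. Single Wild-type barcodes held 57 of 131 Jun UMIs, 44 of 60 Junb UMIs, 49 of 96 Ier3 UMIs and 97 of 112 Klf2 UMIs. Without the highest barcode of each library the log2 ratios were -0.53 for Jun, 0.09 for Junb, -0.49 for Ier3 and -0.52 for Klf2, so none of the 4 passed 1.5-fold. The Lyve1 log2 ratio was 0.51 in the same way, also within 1.5-fold. Among the 58 lower genes were Cldn5, Itm2a and Flt1, from the Wild-type barcode with endothelial RNA. Without members that held RNA of other cell types, 62 genes passed, 37 higher and 25 lower.

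The double transgenic library was set against APP/PS1 to see what differs with TERF2DN in the presence of amyloid. Of 1304 genes compared, 49 (3.76%) passed 1.5-fold, 29 higher (2.22%) and 20 lower (1.53%). With the mean of CPM per cell 44 were higher and 57 lower, with members thinned to 2000 UMIs 114 and 143, and with microglial RNA subtracted 29 and 71. Microglial RNA may account for 3 of the higher and 1 of the lower. In microglia-gene-poor members 247 of 1392 genes (17.7%) passed, 100 higher (7.18%) and 147 lower (10.6%), from 42 and 61 barcodes. In the double transgenic library 1 of these barcodes held most of the neutrophil RNA.

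Fkbp5, which encodes a co-chaperone of the glucocorticoid receptor and is induced by glucocorticoids, was high in the double transgenic library. The gene lies on chromosome 17 (mm10), at chr17:28399094-28517527. Its level was 32.0, 42.0, 23 and 142 CPM in members, from 110, 95, 13 and 123 UMIs in 72, 66, 10 and 51 members. It was 6.18-fold higher (3.49 to 11.9) in the double transgenic library than in APP/PS1 and 3.39-fold higher (2.58 to 4.48) than in TERF2DN-Tg. In microglia-gene-poor members it was at 21.5, 54.1, 26.6 and 142 CPM, from 12, 17, 5 and 32 UMIs, and 5.35-fold higher (2.07 to 17.6) against APP/PS1. The microglia gate had 50, 51.7, 33.9 and 95.3 CPM, highest in the same library, and microglial RNA would give 28.9% of the difference between members. With each barcode thinned to 2000 UMIs, 4.19, 8.57, 7.58 and 19.8% of members had an Fkbp5 UMI, against 9.63, 9.18, 7.01 and 16.1% of microglia-gated barcodes. Before thinning 19.5, 27.8, 12.5 and 43.6% of members had one, and 36, 27, 14 and 16 shallower members were left out of thinning.

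Tsc22d3, a second glucocorticoid-induced gene, was at 54.1, 46.8, 39.0 and 107 CPM in members and 82.4, 73.2, 74.4 and 124 CPM in microglia-gene-poor members. It was 2.73-fold higher (1.70 to 4.57) in the double transgenic library than in APP/PS1 and 2.28-fold higher (1.70 to 3.04) than in TERF2DN-Tg. Among the glucocorticoid-induced genes compared with APP/PS1, 3 of 5 were higher, Fkbp5, Tsc22d3 and Sult1a1, with a median log2 ratio of 0.61 against -0.00 over all genes. In microglia-gene-poor members 2 of 5 were higher, Fkbp5 and Tsc22d3, with a median of 0.39 against -0.08 over all genes. After thinning as for Fkbp5, 18.75, 9.26, 17.2 and 17.0% of microglia-gene-poor members had a Tsc22d3 UMI, against 26.4, 21.5, 21.4 and 27.9% before it. Thinned shares of APP/PS1 and the double transgenic library were thus similar, with wide intervals (5.85 to 35.8% and 7.65 to 30.8%). Over all members 14.1, 9.05, 6.06 and 18.8% had one after thinning, as did 5.33, 5.21, 2.04 and 7.09% of microglia-gated barcodes. In the comparisons of APP/PS1 and of TERF2DN-Tg with Wild-type, 0 of 3 genes of the list passed 1.5-fold in either direction over all members; in microglia-gene-poor members 1 of 4 was lower in both, Nfkbia, an NF-kappaB inhibitor. With the highest barcode of each library left out, the Nfkbia log2 ratios there were -0.69 in APP/PS1 against Wild-type and 0.09 in TERF2DN-Tg against Wild-type.

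Several surface proteins were also higher in the double transgenic library. Vcam1, an adhesion molecule, was at 313, 285, 329.7 and 557 CPM in members and 697, 675, 531 and 978 CPM in microglia-gene-poor members, with 12.2, 11, 4.56 and 6.70 CPM in the microglia gate. It was 1.69-fold higher (1.42 to 2.01) than in APP/PS1 over all members and 1.84-fold higher (1.45 to 2.36) in microglia-gene-poor members. Ms4a6b, a tetraspan membrane protein of myeloid cells, was at 296, 241, 321 and 509.7 CPM in members, 1.59-fold higher (1.33 to 1.90) than in APP/PS1. Cd74, the invariant chain of MHC class II, was at 199, 159, 142 and 324 CPM and 2.29-fold higher (1.78 to 2.97); the MHC class II limit of the rule bears on its level. Cd14, a receptor for bacterial lipopolysaccharide, was at 137, 145, 170.1 and 330.1 CPM, and microglial RNA would give 60.2% of its difference from APP/PS1. In microglia-gene-poor members Cd14 was at 120, 194, 133 and 147 CPM, within 1.5-fold.

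Some genes were lower in the double transgenic library than in APP/PS1, among them Folr2 and Cd209g of the border macrophage list. Folr2 was 1.67-fold lower (ratio 0.601, 0.454 to 0.793) and Cd209g 2.96-fold lower (ratio 0.338, 0.245 to 0.461). Slc40a1, the iron exporter ferroportin, was 1.64-fold lower (ratio 0.609, 0.455 to 0.813), and Rnase6, a secreted ribonuclease, 2.25-fold lower (ratio 0.445, 0.301 to 0.654). The microglia gate held Pf4, Folr2 and Cd209g at under 8 CPM in every library. Of the rule's own genes, which chose the members and are given as a description, Pf4 was 1.60-fold lower (ratio 0.625, 0.558 to 0.699), and 1.70-fold lower (ratio 0.587, 0.499 to 0.690) in microglia-gene-poor members. Cd209f and Clec10a passed 1.5-fold in microglia-gene-poor members, with log2 ratios of -0.73 and -0.92. For Clec10a 1 APP/PS1 barcode held 41 of its 87 UMIs, and without the highest barcode of each library the value was -0.29.

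Lyve1 had a log2 ratio of 0.40 between both amyloid libraries, within 1.5-fold. Of the rule genes, Mrc1, F13a1, Cd163 and Ms4a7 had -0.13, 0.04, 0.23 and -0.08, a description only because they chose the members. Of the 29 border macrophage genes outside the rule that were compared, 2 were higher, Ccl8 and Ms4a6b, and 2 lower, Folr2 and Cd209g, with a median log2 ratio of -0.16. In microglia-gene-poor members 3 of 37 were higher, Ccl8, Ms4a6b and Colec12, and 7 lower, Folr2, Cd209a, Cd209g, Hpgd, Igfbp4, Ednrb and Mgl2. Without the highest barcode of each library the log2 ratios there were 0.44 for Ccl8 and -0.51 for Folr2, both within 1.5-fold. Jun was at 126, 111, 175 and 81.1 CPM in members and 2.16-fold lower (ratio 0.462, 0.335 to 0.634); in microglia-gene-poor members it had 131, 39, 35 and 10 UMIs, of which 1 Wild-type barcode held 57. Cst7 was within 1.5-fold over all members but 2.93-fold higher (1.30 to 7.43) in microglia-gene-poor members, from 8 and 28 UMIs. After thinning, 0, 0, 3.45 and 21.3% of microglia-gene-poor members and 1.98, 2.94, 54.3 and 43.4% of microglia-gated barcodes had a Cst7 UMI; before thinning 0, 0, 19.0 and 26.2% of the former did. The part of microglial RNA in that difference was not tested, since the choice of these members lowers their share.

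The double transgenic library was last set against TERF2DN-Tg, to see what differs with amyloid where TERF2DN is present. Of 1415 genes compared, 159 (11.2%) passed 1.5-fold, 57 higher (4.03%) and 102 lower (7.21%), and microglial RNA may account for 25 and 97 of them. Median-of-ratios size factors moved the median log2 ratio of all genes by 0.14 and gave 107 higher and 54 lower genes. Microglial RNA subtracted gave 133 higher and 8 lower, and the split was 52 and 57 without members above the 95th UMI percentile. This comparison and that of APP/PS1 with Wild-type share no library. Cst7 was 108-fold higher (59.9 to 218), Fabp5 14.6-fold higher (10.9 to 19.8) and Lpl 10.8-fold higher (6.92 to 17.5). P2ry12 was 2.35-fold lower (ratio 0.426, 0.383 to 0.474), Tmem119 3.13-fold lower (ratio 0.320, 0.268 to 0.379) and Ecscr, a gene of microglia and endothelium, 3.88-fold lower (ratio 0.258, 0.181 to 0.357). Microglial RNA would give between 82.9% (Fabp5) and 131% (Lpl) of these 6 differences. Of these genes, P2ry12 and Tmem119 also set the share, so their percentages follow in part from that choice. Of the plaque-associated genes 9 of 20 were higher and 0 lower, and of the homeostatic genes 17 of 23 were lower and 1 higher, with medians of 0.56 and -0.90. In microglia-gene-poor members these were 5 higher and 0 lower of 19, and 3 higher and 0 lower of 13, while 216 of 1341 genes (16.1%) passed in all, 103 higher (7.68%) and 113 lower (8.43%). The homeostatic list includes genes whose detection chose the microglia-gene-poor members.

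Further genes differed that were not named as ones that microglial RNA may account for. That measure counts only microglial RNA that adds to a gene, not how it lowers the CPM of other genes. The microglial RNA share was 0.653 in TERF2DN-Tg members and 0.532 in double transgenic members, and the part of this in the differences was not tested. Lyve1 was 2.01-fold higher (1.62 to 2.51) in the double transgenic library than in TERF2DN-Tg members, but in microglia-gene-poor members the ratio was 1.07. Ccl12 was 2.59-fold higher (2.23 to 3.01) over all members and had a ratio of 1.08 in microglia-gene-poor members. Ms4a6b was 2.12-fold higher (1.86 to 2.40) and Ms4a6c 2.10-fold higher (1.87 to 2.35), and in microglia-gene-poor members 1.98-fold higher (1.59 to 2.47) and 2.08-fold higher (1.71 to 2.55). Cd209b was 1.85-fold higher (1.46 to 2.34), within 1.5-fold in microglia-gene-poor members. Fcna and Cd209g were lower in both sets, 1.71-fold lower (ratio 0.584, 0.441 to 0.766) and 1.67-fold lower (ratio 0.601, 0.449 to 0.792) over all members, but with median-of-ratios size factors both were within 1.5-fold over all members. For Lyve1, Ccl12 and Cd209b the double transgenic members also included a larger part of microglia-gene-poor barcodes, 52.1% against 33.3% in TERF2DN-Tg. The part of this in the result was not tested.

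Genes of glycolysis, TGF-beta signalling and cytokine signalling passed 1.5-fold in some comparisons. Over all genes compared, 3.09% were higher and 9.07% lower in APP/PS1 against Wild-type. In the double transgenic library these shares were 2.22% and 1.53% against APP/PS1 and 4.03% and 7.21% against TERF2DN-Tg. Of 9 glycolysis genes, Tpi1, Pkm and Ldha were higher in APP/PS1 than in Wild-type and 0 were lower, with a median log2 ratio of 0.44, and microglial RNA would give 92.1%, 89.9% and 64.8% of the differences. In the double transgenic library against TERF2DN-Tg 0 of 9 were higher and 1, Ldhb, lower, with a similar median log2 ratio of 0.43. Of 5 genes of TGF-beta signalling, the receptor Tgfbr1 and the inhibitor Skil were lower in APP/PS1 than in Wild-type, with a median of -0.49, and microglial RNA would give 104% and 77.0% of the differences. In the double transgenic library, 2 of 6 were higher than in APP/PS1, Skil and the BMP receptor Bmpr2, and 1 of 6 was lower than in TERF2DN-Tg, Tgfbr1. Of 3 cytokine and inflammation genes, the cyclooxygenase Ptgs1 and the interleukin receptor Il10ra were lower in the double transgenic library than in TERF2DN-Tg, and Ptgs1 was lower in APP/PS1 than in Wild-type. Microglial RNA would give 79.8% and 114% of the differences from TERF2DN-Tg.

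Of 28 or 29 lysosome genes compared, 1 was higher in each comparison with an amyloid library against one without, Ctsl, and microglial RNA would give 50% or more of both differences. None of the lysosome genes passed 1.5-fold in the other 2 comparisons. Of 28 or 29 genes of oxidative phosphorylation, 1, Ndufa1, was higher in the same 2 comparisons, and of 8 or 9 complement genes 1, the integrin subunit Itgam, was lower in them. At least 50% of these differences would come from microglial RNA too. Over all genes compared, 3.09% were higher and 9.07% lower in APP/PS1 against Wild-type. The same shares were 4.03% and 7.21% in the double transgenic library against TERF2DN-Tg. For the lysosome, oxidative phosphorylation and complement lists, 1 gene is near these shares and is no result about the list. Of 10 or 11 genes of iron and haem handling, Slc40a1 passed in 1 comparison, as given above. Of the senescence and p53 target list, 3 genes were compared in each, and 0 passed over all members. In microglia-gene-poor members Btg2 was higher in APP/PS1 than in Wild-type, 1 of 3, and Bax was higher in the double transgenic library than in TERF2DN-Tg, 1 of 2. Over all genes compared there, 5.44% and 7.68% were higher in these comparisons. With the highest barcode of each library left out, the log2 ratios were 0.38 for Btg2, within 1.5-fold, and 0.60 for Bax. Of the 7 or 8 MHC class I genes compared, 4 were higher in the double transgenic library than in TERF2DN-Tg (H2-D1, B2m, H2-T23 and Psmb9), and 0 passed in the other 3 comparisons. With median-of-ratios size factors APP/PS1 against Wild-type had 3 higher MHC class I genes, 6 higher lysosome genes and 7 higher genes of oxidative phosphorylation. Under these factors 113 of 1436 genes were higher in all. Microglial RNA may account for H2-D1 and B2m, the invariant light chain, but not for Psmb9, a subunit of the immunoproteasome, of whose difference it would give -0.202%. In microglia-gene-poor members 0 of 6 MHC class I genes were higher in the double transgenic library than in TERF2DN-Tg, with a median log2 ratio of 0.28. With the highest barcode of each library left out, the log2 ratios over all members were 0.58 for B2m and 0.52 for Psmb9, within 1.5-fold.

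S100a8 and S100a9, subunits of a calcium-binding protein that neutrophils carry in bulk, were the genes with the largest ratios in several comparisons, and they came from few barcodes. S100a8 had 4199, 1248, 0 and 986 UMIs in members, with 2063, 1058, 0 and 979 in the highest barcode. S100a9 had 3940, 1336, 4 and 1108 UMIs, with 1960, 1181, 2 and 1101 in the highest barcode. No S100a8 UMI was seen in APP/PS1 members, so its level there was at least 229.5-fold lower than in Wild-type, against a floor of 3 UMIs. The share times the level in the microglia gate would give 49.2% of the difference, since that gate held S100a8 too, at 1175, 389, 125 and 255 CPM. The gate did not exclude neutrophil genes, so this S100a8 need not be of microglia, and its source was not tested.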

How the data were processed

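RNA was measured in 4 single-cell libraries, 1 per genotype. The authors deposited raw UMI counts per gene and barcode, which per the file headers come from Cell Ranger 6.1.2 and per the submitters' processing notes are on mm10, as filtered matrices of 32285 genes. The other deposited files list the barcodes and the gene names, which are text and hold no measurement. The sources used here do not say whether doublets or free RNA were removed before deposit, and neither was removed here.

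Counts of the members of a library were summed and scaled to CPM with Python 3.11.15, numpy 2.4.6, scipy 1.17.1 and pandas 2.3.3. Ratios were taken on CPM + 20 among genes at 100 CPM or more in at least 1 of the libraries compared, with 1.5 as the fold. Plain CPM ratios have exact conditional binomial intervals, levels exact Poisson intervals and shares Clopper-Pearson intervals, at 95%. UMIs sample molecules, so these intervals cover counting error only, and the total UMIs over members, from 564214 to 3440378 per library, set their width. A library with no UMI of a gene was set at a floor of 3 UMIs.

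Microglia-gated barcodes had 3 or more of the 8 microglia-defining genes and at most 1 rule gene, neutrophil-gated ones 3 or more of 8 neutrophil genes and 20 or more S100a8 UMIs, and endothelial-gated ones 4 or more of 7 endothelial genes and at most 1 rule gene. The members, the 35 gene lists and the rules were chosen with earlier results of these data known. The genes named were the 10 highest and 10 lowest of each comparison, the rule genes, the microglia-defining genes and the list members with the largest ratios, described where they bear on a comparison; genes named outside this rule were chosen after their values were seen. Sex-linked, mitochondrial and ribosomal protein genes were not named, and 1 further result is not reported here. The script was checked on simulated data. Alternatives changed each filter, the scaling, the pseudocount, the minimum and the fold, and 3 of them were added after seeing the data: leaving out members with RNA of other cell types, leaving out these and members with 4 or more microglial genes, and leaving out each gene's highest member. Gene positions are those of the mm10 annotation.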

Additional observations from a re-analysis of the deposited data

Results flagged for a closer look

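Ccl8 stood at a log2 ratio of -0.93 for TERF2DN-Tg against Wild-type members and at 1.22 for the double transgenic library against APP/PS1, so TERF2DN went with opposite directions without and with amyloid. The difference was not tested, and in microglia-gene-poor members the ratios were -0.34 and 1.01. Without the highest barcode of each library they were -0.78 and 1.18 over all members, and -0.51 and 0.44 in microglia-gene-poor members. For S100a8 the same pair of log2 ratios was -1.12 and 5.86, and for S100a9 -0.93 and 5.59. The pair for amyloid without and with TERF2DN was -5.95 and 1.02 for S100a8 and -5.43 and 1.09 for S100a9. These differences were not tested either. The highest members of the libraries held 2063, 1058, 0 and 979 S100a8 UMIs of 4199, 1248, 0 and 986, and 1960, 1181, 2 and 1101 S100a9 UMIs of 3940, 1336, 4 and 1108.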

How the results depend on the processing

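No paired analysis was possible because each genotype had 1 library. With 1 library each, no value has an error between animals, and depth limits the microglia-gene-poor members most, which held fewer UMIs than the others; a gene at 100 CPM had few UMIs in these sets, whose totals were 558134, 314295, 188233 and 224987. Microglial RNA is estimated from 8 genes and assumes that the microglia of the same library are its source.

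The percentage of members moved under 4 alternatives. With at least 4 rule genes, it was 4.32 in Wild-type and 4.07 in TERF2DN-Tg. With at least 5 rule genes, it was 3.46 in Wild-type, 3.04 in TERF2DN-Tg, 1.02 in APP/PS1 and 1.5 in the double transgenic library. Without members above the 95th UMI percentile, it was 4.25 in Wild-type and 4.07 in TERF2DN-Tg. Without members holding 4 or more microglial genes, it was 1.78 in Wild-type, 1.62 in TERF2DN-Tg, 0.853 in APP/PS1 and 1.2 in the double transgenic library. In each of these the libraries with amyloid held the lower percentages.

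The microglial RNA share moved beyond its counting error as follows. It came to 0.579 in Wild-type and 0.674 in TERF2DN-Tg at no more than 5% mitochondrial UMIs. It came to 0.539 in Wild-type, 0.573 in TERF2DN-Tg, 0.431 in APP/PS1 and 0.508 in the double transgenic library with at least 4 rule genes. It came to 0.514 in Wild-type, 0.542 in TERF2DN-Tg and 0.445 in APP/PS1 with at least 5 rule genes. It came to 0.383 in Wild-type, 0.432 in TERF2DN-Tg, 0.377 in APP/PS1 and 0.468 in the double transgenic library without members above the 95th UMI percentile. It came to 0.0515 in Wild-type, 0.0548 in TERF2DN-Tg, 0.0628 in APP/PS1 and 0.106 in the double transgenic library without members holding 4 or more microglial genes. It came to 0.605 in Wild-type, 0.681 in TERF2DN-Tg, 0.518 in APP/PS1 and 0.552 in the double transgenic library with the summed counts of the 8 genes. It came to 0.615 in TERF2DN-Tg and 0.479 in the double transgenic library with under 5 MHC class II UMIs. It came to 0.606 in APP/PS1 with under 20 MHC class II UMIs.

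The number of genes past the fold moved by over 1.5 times under these alternatives. For APP/PS1 against Wild-type the 173 genes became 80 without members above the 95th UMI percentile, 97 with the mean of CPM per cell, 81 with microglial RNA subtracted, 112 with a pseudocount of 50 CPM, 318 with a minimum of 50 CPM, 75 with a minimum of 200 CPM, 642 with no minimum, 519 at a lower fold and 47 at a fold of 2. For TERF2DN-Tg against Wild-type the 12 genes became 97 without members holding 4 or more microglial genes, 7 without members with RNA of other cell types, 62 without members with 4 or more microglial genes or RNA of other cell types, 7 with the mean of CPM per cell, 33 with members thinned to 2000 UMIs, 39 with microglial RNA subtracted, 21 with a minimum of 50 CPM, 6 with a minimum of 200 CPM, 50 with no minimum, 55 at a lower fold and 7 at a fold of 2. For the double transgenic library against APP/PS1 the 49 genes became 101 with at least 5 rule genes, 89 without members above the 95th UMI percentile, 247 without members holding 4 or more microglial genes, 228 without members with 4 or more microglial genes or RNA of other cell types, 101 with the mean of CPM per cell, 257 with members thinned to 2000 UMIs, 100 with microglial RNA subtracted, 76 with a pseudocount of 5 CPM, 29 with a pseudocount of 50 CPM, 138 with a minimum of 50 CPM, 17 with a minimum of 200 CPM, 443 with no minimum, 248 at a lower fold and 12 at a fold of 2. For the double transgenic library against TERF2DN-Tg the 159 genes became 246 with members thinned to 2000 UMIs, 276 with a minimum of 50 CPM, 80 with a minimum of 200 CPM, 471 with no minimum, 482 at a lower fold and 37 at a fold of 2.

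Directions that turned, as log2 ratios, were the following, and the cause was not tested. With microglial RNA subtracted they were, for APP/PS1 against Wild-type Fabp5 -1.15, Igf1 -0.016, Trem2 -0.99 and Tmem119 1.10, and for the double transgenic library against TERF2DN-Tg Sall1 0.26. Without members with 4 or more microglial genes or RNA of other cell types they were, for APP/PS1 against Wild-type Trem2 -0.022, Ccl3 -0.39, P2ry12 0.42, Tmem119 0.040 and plaque-associated microglia genes (list median) -0.031, and for TERF2DN-Tg against Wild-type S100a8 0.41 and S100a9 0.73, and for the double transgenic library against APP/PS1 S100a9 -0.038, and for the double transgenic library against TERF2DN-Tg Cx3cr1 0.71, Sall1 0.084, S100a8 -0.63, S100a9 -1.18 and homeostatic microglia genes (list median) 0.19. Without members holding 4 or more microglial genes they were, for APP/PS1 against Wild-type Ccl3 -0.30, P2ry12 0.53 and Tmem119 0.081, and for TERF2DN-Tg against Wild-type S100a8 0.45 and S100a9 0.76, and for the double transgenic library against TERF2DN-Tg Cx3cr1 0.66, Sall1 0.077 and homeostatic microglia genes (list median) 0.13. Without members above the 95th UMI percentile they were, for APP/PS1 against Wild-type Ccl4 -0.083, and for TERF2DN-Tg against Wild-type S100a8 4.72 and S100a9 5.05. With the mean of CPM per cell they were, for TERF2DN-Tg against Wild-type S100a8 0.0015 and S100a9 0.27. With members thinned to 2000 UMIs they were, for TERF2DN-Tg against Wild-type S100a8 0.13 and S100a9 0.34. Without members with RNA of other cell types they were, for TERF2DN-Tg against Wild-type S100a9 0.15, and for the double transgenic library against APP/PS1 S100a9 -0.12, and for the double transgenic library against TERF2DN-Tg S100a8 -0.36 and S100a9 -0.46. With at least 5 rule genes they were, for the double transgenic library against APP/PS1 S100a9 -0.14, and for the double transgenic library against TERF2DN-Tg S100a8 -5.31 and S100a9 -5.20. With a minimum of 200 CPM they were, for the double transgenic library against APP/PS1 glucocorticoid-induced genes (list median) -0.056. Without each gene's highest member they were, for the double transgenic library against TERF2DN-Tg S100a8 -1.89 and S100a9 -1.65. Of the single-gene values under all alternatives, 1459 moved by less than their counting error, 698 moved by more in the same direction or without a call, and 39 turned. Of list medians, 4 turned. Both the subtraction of microglial RNA and the cut at 4 microglial genes use P2ry12, Tmem119 and Sall1 themselves. Their turns under these alternatives depend in part on that use.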
